A study of Homo sapiens with 18 samples.

Results

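CTCF binding within chromatin that already carried H3K27ac was examined in HEK293T, an immortalized cell line derived from human embryonic kidney. Untreated cells (CTRL) were compared with cells kept in 1 mM valproic acid (VPA), which inhibits class I histone deacetylases, for 1 day. The labels name no other agent or allele. ChIP-seq with an antibody against CTCF or against H3K27ac gave 3 replicate libraries for each antibody and treatment, and the peak list of each of these 12 libraries was used. The labels do not say whether replicates were separate cultures, so the p-values below measure the spread between these libraries, which may be technical. HEK293T is a single line, and the results describe that line. The lists hold chromosomes 1 to 22. Peaks of the 6 CTCF lists were merged into 69985 regions. The regions described here were selected on measured values: each had its summit more than 1 kb from the transcription start site (TSS) of every protein-coding gene, and inside an H3K27ac peak in at least 2 of the 3 CTRL lists. Of the 69985 regions, 5573 (7.96%) met this rule and are called acetylated distal regions. The 51802 distal regions that lay in no H3K27ac peak of any of the 6 lists are called unacetylated distal regions and served for comparison. H3K27ac in CTRL and the distance to a TSS chose the members, so neither is a finding.

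CTCF is a zinc finger protein that binds a long, GC-rich and directional DNA motif. It halts the cohesin ring as cohesin extrudes loops of chromatin, and in this way it marks the borders of many chromatin domains. H3K27ac, the acetylation of lysine 27 of histone H3, is placed by the acetyltransferases EP300 and CREBBP on the nucleosomes that flank active promoters and enhancers, and histone deacetylases remove it. CTCF sites are found beside enhancers, at insulators and at start sites as well as in chromatin without acetylation.

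The words distal and constitutive were first checked against the annotation and the VPA lists. Only 1 start site per gene was used by the rule, and 31.2% of the acetylated distal regions (1740) lay within 1 kb of another transcript start of a protein-coding gene. A start of a non-coding transcript was within 1 kb of 21.9% (1223). In all, 2620 regions (47.0%) were near some annotated transcript start, compared with 9.65% of the unacetylated distal regions, and 2953 were near none. "Distal" thus holds for the start of each gene's annotated span, which need not be its main start site, and not for every start. Members just beyond the limit, up to 1100 bp from the gene's start (153 regions), had a median of the mean log2 fold enrichment of 4.32, and regions just within it, 900 to 1000 bp away (199 regions), had 4.34. By annotation, 42.9% of summits lay in introns, 40.1% between genes, 9.78% in UTRs and 7.25% in coding exons. The median distance to the nearest gene start was 16.1 kb, against 56.0 kb for unacetylated distal regions.

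Acetylation persisted at most of the regions. Of the 5573, 3661 were inside H3K27ac peaks in 3 of 3 CTRL lists and 1912 in 2 of 3, while 1676 distal regions just outside the rule were in 1 of 3. After VPA, 4323 (77.6%) were still inside H3K27ac peaks in 3 of 3 lists, 5368 (96.3%) in at least 2, 150 in 1 and 55 in none. Among the 55, only 2 had been inside peaks in 3 of 3 CTRL lists, 1 in an intron of FNDC3B, a membrane protein gene, and 1 located 60.6 kb from SOX17, an endoderm transcription factor. As a check of the cell line, an H3K27ac peak lay within 1 kb of the TSS of VIM, KRT18, NEFM and GAPDH in 3 of 3 CTRL lists. For ALB, CD3E, PTPRC, TTN, HBB and INS, which mark liver, T cells, leukocytes, muscle, erythroid and islet cells, this held in 0 of 3. For PAX2 and LIN28B, also expected in this line, it held in 0 of 3.

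The DNA under the strongest summits shows what CTCF was found on. Shown are 151 bases of the hg38 plus strand centred on the summit, for the regions with the highest mean fold enrichment among those with the motif and among those without it. The capitals mark the best match to the 14-letter core of the CTCF consensus, on either strand, and a region had the motif if a match with at most 1 mismatch lay within 100 bp of the summit. The first 4 hold the motif and the last 3 do not. Names give the nearest protein-coding gene. A region nearest to MED15 was also among the 5 strongest, and its window overlaps a UTR and is not shown.
POLR3K region, chr16:10909-11059: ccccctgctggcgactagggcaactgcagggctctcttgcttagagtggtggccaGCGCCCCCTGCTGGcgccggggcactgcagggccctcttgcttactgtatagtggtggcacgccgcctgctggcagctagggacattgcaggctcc
LBR region, chr1:225475049-225475199: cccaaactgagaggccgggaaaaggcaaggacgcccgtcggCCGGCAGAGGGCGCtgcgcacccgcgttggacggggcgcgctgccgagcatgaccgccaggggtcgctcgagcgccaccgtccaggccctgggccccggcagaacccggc
SNCG region, chr10:86939538-86939688: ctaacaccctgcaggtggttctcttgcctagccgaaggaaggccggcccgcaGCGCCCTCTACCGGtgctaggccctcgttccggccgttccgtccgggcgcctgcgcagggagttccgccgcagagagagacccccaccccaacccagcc
NES region, chr1:156660096-156660246: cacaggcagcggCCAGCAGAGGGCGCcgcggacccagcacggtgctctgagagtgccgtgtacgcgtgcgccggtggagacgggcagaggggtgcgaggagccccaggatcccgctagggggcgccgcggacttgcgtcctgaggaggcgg
TMEM253 region, chr14:21092584-21092734: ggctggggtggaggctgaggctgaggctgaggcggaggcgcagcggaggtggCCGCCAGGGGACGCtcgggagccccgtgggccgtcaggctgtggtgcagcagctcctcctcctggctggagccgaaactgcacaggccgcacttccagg
GLRX3 region, chr10:130190212-130190362: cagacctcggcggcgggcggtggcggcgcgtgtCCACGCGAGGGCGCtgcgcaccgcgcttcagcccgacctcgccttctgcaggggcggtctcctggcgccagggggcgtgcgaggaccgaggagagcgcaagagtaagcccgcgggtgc
MYL2 region, chr12:110888114-110888264: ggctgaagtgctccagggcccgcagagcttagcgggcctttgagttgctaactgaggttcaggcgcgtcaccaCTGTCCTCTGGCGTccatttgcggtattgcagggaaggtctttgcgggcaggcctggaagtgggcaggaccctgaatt

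These windows held the motif letters close to the summit, and both strands were used. The POLR3K window has the match with 0 mismatches on the minus strand 13.5 bp from the summit, and the NES window has one with 0 mismatches on the plus strand 56.5 bp away. LBR and SNCG had 1 mismatch. The regions without the motif were not bare of related letters: those near TMEM253 and GLRX3 held a match with 2 mismatches, and that near MYL2 one with 3. In windows 2 kb to either side of the acetylated distal summits, the best match had 2 mismatches in 5.53% and 3 in 28.6%. The MYL2 region lies in an intron of CCDC63 and the TMEM253 region in a coding exon of ZNF219, a zinc finger gene, while the GLRX3 region is intergenic and 53.9 kb from its gene. The POLR3K window is subtelomeric, and its middle 50 bases occur 6 times in the genome, so its enrichment cannot be given to one copy. For the other regions whose windows are printed here, and for those near MED15 and NUP98, the middle bases occurred 1 time. Other regions were not checked for copies.

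Enrichment at these summits was high in every list. Fold enrichment, the fragments over the summit relative to the local background as the authors' peak caller gave it, was 104, 229 and 195 in CTRL replicates 1, 2 and 3 and 185, 231 and 232 in the VPA replicates at the region upstream of LBR, which encodes the lamin B receptor. It was 86.0, 187 and 159 in CTRL and 118, 201 and 235 in VPA at the region 17.2 kb from NES, the gene of the intermediate filament nestin. The lowest value was that of CTRL replicate 1 at both regions. At the TMEM253 region without the motif it was 94.9, 268 and 194 in CTRL and 159, 169 and 166 in VPA, so the groups overlapped there as well. All 5 of the strongest regions with the motif, and all 3 of the strongest without it, were inside H3K27ac peaks in 2 of 3 CTRL lists, and replicate 1 was the list that lacked the peak.

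The motif divided the acetylated distal regions. It was present in 1068 of 5573, or 19.2% (95% Wilson interval 18.1% to 20.2%, which covers counting error only), and in 0.897% of windows 2 kb to either side. The best match lay within 25 bp of the summit in 77.5% of the 1068. Unacetylated distal regions held it in 27.7% (27.3% to 28.1%) and acetylated promoters in 11.9%. Of all 69985 regions, 26.7% held it. Distal regions that were acetylated only after VPA, in no CTRL list and in at least 2 VPA lists, held it in 40.3% of 1852. Within the acetylated distal regions the share was 13.9% in those with H3K27ac in 3 of 3 CTRL lists and 29.2% in those with 2 of 3, and it was 36.9% in the distal regions with 1 of 3. Ordered by the strength of the CTRL H3K27ac peak, 4 groups of equal size held the motif in 26.9%, 22.7%, 14.9% and 12.1% of their regions from the weakest to the strongest. In the same order the share near any transcript start was 23.5%, 39.1%, 59.7% and 65.8%. Because H3K27ac chose the members, these orders are descriptions.

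The motif share was then compared between classes within each CTCF list, over the regions with a peak in that list. Acetylated minus unacetylated distal regions gave −10.7, −8.78 and −8.20 percentage points in CTRL and −16.6, −9.11 and −7.49 in VPA. The share was lower in acetylated distal regions in 6 of 6 lists, with a mean difference of −10.2 points (exact sign-flip test over lists, two-sided p = 0.03125). That is the smallest p that 6 lists allow, and after Benjamini-Hochberg adjustment over 9 tests it was 0.0703, which does not pass 0.05. The same holds for each sign-flip p of 0.03125 below. Base composition also differed. The 201 bases around the summit had a median GC content of 62.7% and 11 CpG in acetylated distal regions and 50.7% and 3 in unacetylated ones, whereas acetylated promoters had 70.1% and 20.

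Regions with the motif had higher CTCF enrichment, and peaks in more libraries. A peak was present in 91.5%, 98.7% and 98.0% of the 1068 regions with the motif in CTRL and in 91.9%, 97.4% and 96.1% in VPA. For the 4505 regions without it, the shares were 62.5%, 85.0% and 79.9% in CTRL and 60.3%, 79.7% and 72.4% in VPA. The regions with the motif had the higher share in 6 of 6 lists, by 22.3 points on average (exact sign-flip p = 0.03125, adjusted p = 0.0703). Median log2 fold enrichment was 5.86 ± 0.39 in CTRL and 6.04 ± 0.35 in VPA with the motif, and 3.38 ± 0.14 and 3.36 ± 0.26 without it (SD, n = 3 libraries each). The 2 sets of lists did not overlap, and the mean difference was 2.58 on the log2 scale (exact sign-flip p = 0.03125, adjusted p = 0.0703). With each list cut to the length of the shortest list the difference was 1.68.

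**Figure D1:**
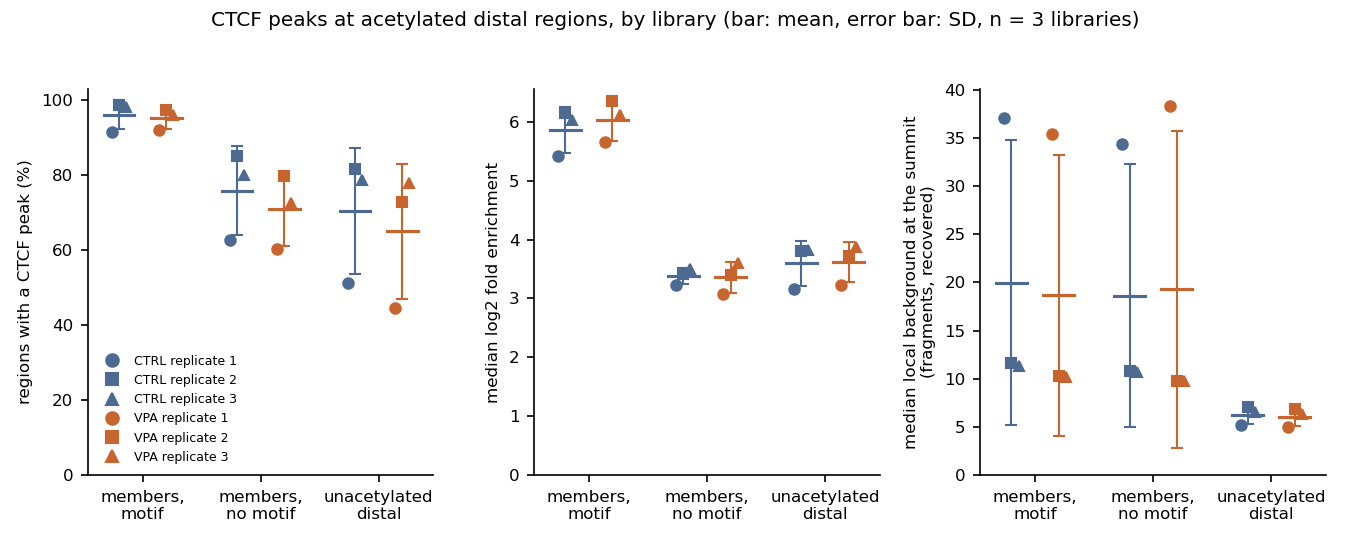
For the acetylated distal regions (members) with and without the motif and for unacetylated distal regions, the panels plot the percentage of regions with a CTCF peak, the median log2 fold enrichment and the median local background in fragments, 1 point per library, with the mean and SD of 3 libraries. Regions with the motif lie between 91.5% and 98.7% in all 6 lists, and the local background of members is 34.4 to 38.3 fragments in both replicate 1 lists and 9.76 to 11.6 in the others.

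The number of lists that held a region was counted next. A peak in all 6 lists was found for 3141 regions (56.4%), of which 946 had the motif, and a peak in 1 list only for 707 regions (12.7%), of which 13 had it. Thus 88.6% of the regions with the motif were in all 6 lists, compared with 48.7% of those without, and 32.7% of the unacetylated distal regions were. These counts were ordered by the number of mismatches. With 0, 1, 2, 3 and at least 4 mismatches, 95.4%, 86.4%, 65.9%, 43.9% and 28.5% of the regions were in all 6 lists. The median of the mean log2 fold enrichment of regions in all 6 lists was 6.10, 5.99, 5.13, 3.89 and 3.55 in the same order. At 0 mismatches unacetylated distal regions were in all 6 lists in 72.8% and had a median of 5.43. At 4 or more they were in 12.6% and had 3.83, above the value of the acetylated ones. These are descriptions over regions, which are not replicates.

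**Figure D2:**
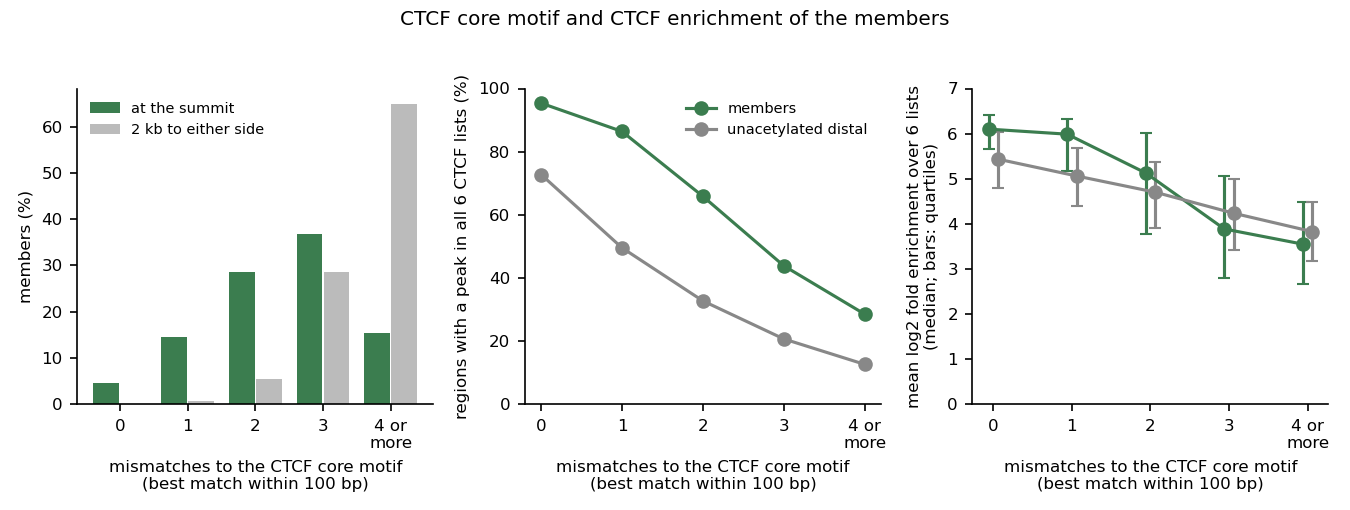
Left, percentage of the acetylated distal regions (members) whose best match to the CTCF core motif has 0 to 4 or more mismatches, at the summit and in windows 2 kb away; middle, percentage with a peak in all 6 CTCF lists; right, median and quartiles of the mean log2 fold enrichment over 6 lists. Both measures are lower with more mismatches, and among members the share in all 6 lists goes from 95.4% to 28.5%.

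Against unacetylated distal regions, the acetylated ones had higher peaks under the rule used, and not when H3K27ac was required in 3 of 3 CTRL lists. Their median log2 fold enrichment was higher in 6 of 6 lists, by 0.66, 0.33 and 0.39 in CTRL and 0.39, 0.45 and 0.58 in VPA (mean 0.47, exact sign-flip p = 0.03125, adjusted p = 0.0703). When H3K27ac was required in 3 of 3 CTRL lists, the difference turned to −0.12 (exact p = 0.15625). With stricter limits on distance it was larger: 0.67 over 5 kb from a TSS, and 0.84 with the start of every transcript of protein-coding genes. Of the regions in 2 of 3 lists, 10.3% lay in an H3K27ac peak in CTRL replicate 1, 95.4% in replicate 2 and 94.3% in replicate 3. The 1912 regions with H3K27ac in 2 of 3 CTRL lists had a median log2 fold enrichment of 5.16 ± 0.33 in CTRL, and the 3661 with 3 of 3 had 3.49 ± 0.11 (SD, n = 3 libraries). A CTCF peak was present in 79.7 ± 10.3% of the acetylated and 70.4 ± 16.8% of the unacetylated distal regions in CTRL (SD, n = 3). The share was higher by 9.88 points on average and in 5 of 6 lists, which did not pass the test (exact sign-flip p = 0.0625, adjusted p = 0.1125). In replicate 1 the difference was 17.0 points in CTRL and 21.9 in VPA, and without replicate number 1 in both groups the mean was 5.08.

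The replicate 1 CTCF lists stood apart at these regions and also at acetylated promoters, and this touches every comparison between libraries. Their median local background at the summits, recovered from the deposited values, was 35.0 fragments in CTRL and 37.8 in VPA, while the other 4 lists had 9.91 to 11.1. At acetylated promoters it was 46.99 in CTRL replicate 1 and 43.86 in VPA replicate 1, and 10.3 to 11.9 in the others. At unacetylated distal regions it was 5.22 and 4.997 in replicate 1 and 6.36 to 7.02 in the others. GC content moved with it. The acetylated distal regions were cut into 4 groups of near equal size by GC content. In the group with the lowest GC content, replicate 1 had a local background of 8.06 fragments in CTRL and 8.36 in VPA and a peak at 52.9% and 42.6% of the regions. In the group with the highest GC content these were 52.7 and 44.97 fragments and 68.0% and 85.0%. The other 4 lists held peaks at 77.2% to 89.2% of the lowest group and at 78.1% to 89.2% of the highest. The part of local background and GC content in the differences between libraries was not tested.

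Other short motifs were counted in the same 201-base windows on both strands. GGGCGGGG, a box bound by SP and KLF factors, was found in 12.2% of the acetylated distal regions, 1.41% of the unacetylated ones, 21.3% of acetylated promoters and 4.17% of all regions. CCGGAAGT, an ETS site, was found in 1.09%, 0.176%, 2.93% and 0.474% of the same classes, and the cyclic AMP response element TGACGTCA in 0.323%, 0.108%, 1.00% and 0.206%. CACGTG, an E-box, followed in 4.22%, 3.10%, 5.32% and 3.45%. In contrast, TGANTCA, the AP-1 site, was found in 3.86%, 5.42%, 1.65% and 4.98%. AAGATGGC, the site of YY1, was found in 1.24%, 2.43%, 2.04% and 2.23%, and GGAATGT, a TEAD site, in 1.61%, 2.67%, 0.908% and 2.42%. The site of erythroid and nephron factors named GATA, searched for as AGATAAG, was found in 1.04%, 1.85%, 0.719% and 1.68%. For every string except AAGATGGC, the share in acetylated distal regions lay between those of unacetylated regions and acetylated promoters. Windows to either side were not searched for these strings. None of these letter strings contains another on either strand, and matches may overlap the CTCF motif. In acetylated distal regions, GGGCGGGG was about as frequent without the CTCF motif (12.5%) as with it (11.1%).

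The CTCF motif has a direction, and it was set against the acetylation around it. Read 5′ to 3′ along the core, the motif pointed toward the summit of the surrounding H3K27ac peak in 59.2%, 60.9% and 60.9% of the regions with the motif in the CTRL lists and in 58.7%, 61.8% and 60.9% in the VPA lists. The lists share these regions, so the 6 values are not independent. Where the H3K27ac summit was more than 150 bp away the share was 58.8% to 63.3%. It was 60.1%, 60.8% and 60.6% in the CTRL lists for regions over 1 kb from every transcript start, and 62.2% to 65.2% over the 6 lists at acetylated promoters. Relative to the nearest gene start, 503 of 1068 pointed toward it (47.1%, 95% Wilson interval 44.1% to 50.1%), compared with 59.3% (55.4% to 63.1%) at acetylated promoters.

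Whether VPA changed CTCF at chromatin that was already acetylated was tested next. A CTCF peak was present in 68.1%, 87.6% and 83.3% of the acetylated distal regions in CTRL and in 66.3%, 83.1% and 77.0% in VPA. The means were 79.7 ± 10.3% and 75.5 ± 8.46% (SD, n = 3 each), and the groups overlapped. The difference of −4.22 points did not pass the test (exact permutation test, two-sided p = 0.5, adjusted p = 0.675), and with 3 libraries against 3 the test cannot go below 0.1. Within replicate numbers 1, 2 and 3 the difference was −1.74, −4.54 and −6.39 points, lower in VPA in 3 of 3. With every list cut to the length of the shortest list it was −0.0151 points. Without VPA replicate 1, and with regions merged anew, it was 0.301 points. The change differed from that of unacetylated distal regions by 1.27 points (exact p = 1.0, adjusted p = 1.0). Between regions with and without the motif it differed by 4.07 points (exact p = 0.6, adjusted p = 0.675), with 2.73, 3.99 and 5.47 within replicate numbers and −0.0224 at equal list lengths. The motif was present in 23.3 ± 2.18% of the acetylated distal regions with a peak in CTRL and in 24.3 ± 2.08% in VPA (SD, n = 3, exact p = 0.6, adjusted p = 0.675). VPA thus differed by 1.02 points, with 0.811, 0.878 and 1.38 within replicate numbers, and 0.0776 at equal list lengths.

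Few regions had a peak in one treatment only. Of the 5573, 29 had a peak in 3 of 3 CTRL and 0 of 3 VPA lists (0.520%, where 0.326% of all 69985 regions did so), and 27 of the 29 lacked the motif. The reverse pattern was seen in 9 (0.162%, against 0.186% of all regions), and all 9 lacked the motif. Of all 5573 acetylated distal regions, 4505 lacked the motif. None of these counts was tested.

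At the 3141 acetylated distal regions with a peak in all 6 lists, the log2 fold enrichment was compared with limma, in a fit over 27794 regions whose lists were centred on their medians. No region passed an adjusted p of 0.05, neither among the 3141 nor among the 27794 (0 called, 0.0%), and the count stayed at 0 under every other scaling and filter tried. At an unadjusted p under 0.05, 3 acetylated distal regions were higher in VPA (0.0955%, against 0.14% of all tested) and 10 were lower (0.318%, against 0.324%). The balance of these counts turned with the scaling: 20 were higher and 5 lower without centring, and 55 higher and 21 lower with quantile normalization. Over all 27794 tested regions, such a p in either direction was found for 129 with the main scaling. It was found for 254 without centring, for 533 with quantile normalization and for 1314 without replicate number 1 in both groups. With no change, a p under 0.05 is expected at a share of 0.05 of regions, and the main fit gave far fewer. Its p-values were thus conservative, which limits what the count of 0 called can say. The median standard error was 0.66 on the log2 scale. Libraries were also simulated with independent noise scaled to the median spread of the tested regions. There a change of 2 on the log2 scale was called in 0 of 100 regions and a change of 4 in 92, so a change of 2 was not detectable in that setting. In the real fit the SE of the named regions ran from 0.61 to 1.2, so these limits do not hold for each region. The median log2 change was 0.24 for the acetylated distal regions and 0.10 for all tested regions. Without centring, which shifts all regions together, the medians were 0.12 and −0.02. Single libraries also moved them: they were −0.20 and −0.18 without VPA replicate 1, 0.51 and 0.22 without VPA replicate 3, 0.40 and 0.19 without VPA replicate 2, and 0.46 and 0.25 without CTRL replicate 1. Without CTRL replicate 2 they were 0.16 and 0.05, and without CTRL replicate 3 0.12 and 0.03. For the acetylated distal regions it was −0.13, −0.08, 0.33 and 0.40 in the 4 groups of rising GC content. Without replicate number 1 in both groups these were −0.02, 0.08, 0.06 and 0.08, and the medians were 0.06 for acetylated distal regions and 0.07 for all regions.

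**Figure D3:**
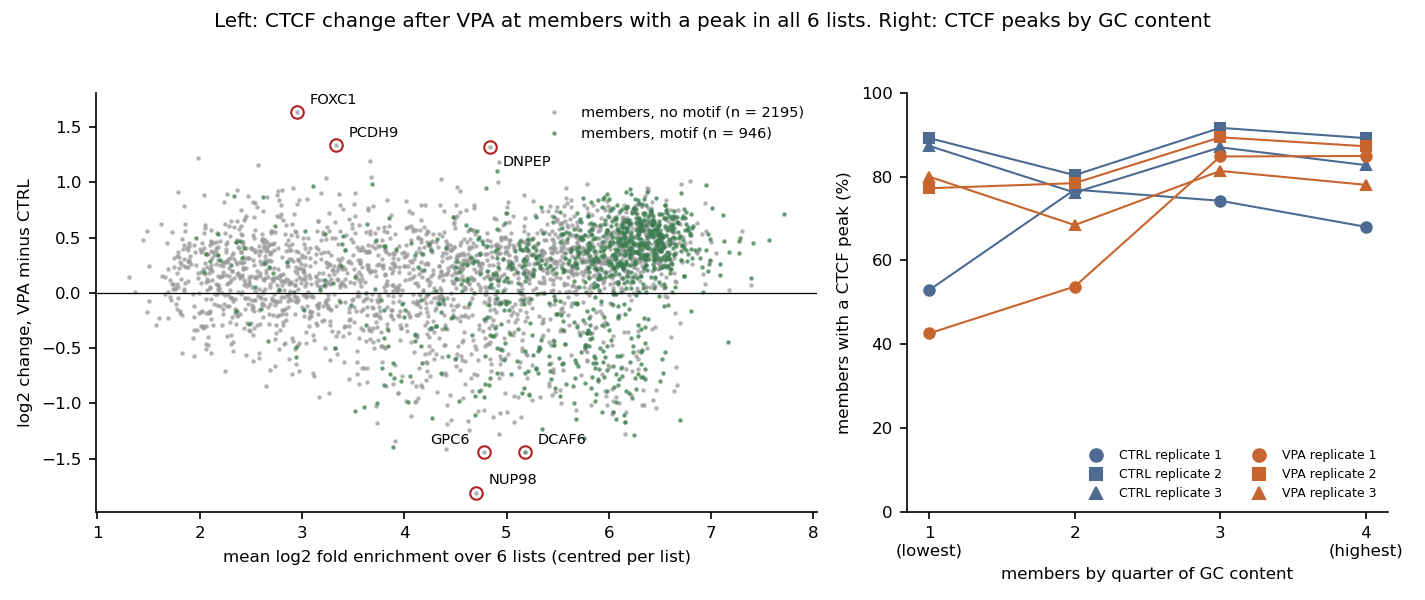
Left, log2 change of CTCF fold enrichment (VPA minus CTRL) against the mean log2 fold enrichment of the 3141 acetylated distal regions (members) with a peak in all 6 lists, with and without the motif, and the 6 named regions circled. Right, percentage of members with a CTCF peak in each library in 4 groups of near equal size by GC content, where the 2 replicate 1 lists have the lowest shares in the lowest group (52.9% and 42.6%).

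The regions with the largest log2 differences were named although none was called. Their windows, 151 bases of the plus strand with the best match to the CTCF core in capitals, are shown for 5 of the 6, since the window of the region nearest to NUP98 overlaps a UTR. Only the DCAF6 window has a match with 1 mismatch. The others have 2 or 3.
FOXC1 region, chr6:1611490-1611640: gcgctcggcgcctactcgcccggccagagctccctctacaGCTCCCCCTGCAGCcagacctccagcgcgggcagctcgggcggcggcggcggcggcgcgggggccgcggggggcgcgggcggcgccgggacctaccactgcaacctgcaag
PCDH9 region, chr13:67736689-67736839: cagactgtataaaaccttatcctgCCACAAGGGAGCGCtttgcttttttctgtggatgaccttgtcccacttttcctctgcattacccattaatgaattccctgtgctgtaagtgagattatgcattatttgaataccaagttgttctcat
DNPEP region, chr2:219388546-219388696: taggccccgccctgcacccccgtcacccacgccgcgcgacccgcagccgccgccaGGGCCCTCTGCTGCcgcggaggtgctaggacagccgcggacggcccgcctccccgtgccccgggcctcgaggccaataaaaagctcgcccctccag
DCAF6 region, chr1:167926571-167926721: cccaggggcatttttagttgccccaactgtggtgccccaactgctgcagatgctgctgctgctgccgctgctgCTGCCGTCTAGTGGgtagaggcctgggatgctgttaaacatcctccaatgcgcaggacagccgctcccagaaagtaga
GPC6 region, chr13:93248652-93248802: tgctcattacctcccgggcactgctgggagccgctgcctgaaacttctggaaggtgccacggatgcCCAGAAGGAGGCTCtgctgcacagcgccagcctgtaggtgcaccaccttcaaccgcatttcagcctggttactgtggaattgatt

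At FOXC1, which encodes a forkhead factor of mesoderm and eye development, the region lay in the coding exon 1.6 kb downstream of the start. Fold enrichment was 3.39, 4.88 and 5.80 in CTRL and 13.2, 13.9 and 12.3 in VPA. The groups did not overlap, but the region was picked for its large difference and small p, so this is not evidence of a change. How many of all tested regions separate in this way was not counted. The log2 change was 1.64 ± 0.65 (SE, limma adjusted p = 0.9999). The surrounding H3K27ac peak had a fold enrichment of 29.4, 77.9 and 109.7 in CTRL and 15.9, 49.5 and 40.3 in VPA. At the region in an intron of DNPEP, an aminopeptidase gene, fold enrichment was 16.3, 21.4 and 19.5 in CTRL and 42.7, 49.6 and 38.8 in VPA. The log2 change was 1.32 ± 0.61 (SE, limma adjusted p = 0.9999). The groups did not overlap there either, in a region picked the same way. The DNPEP region lay 0.3 kb from another coding transcript start. Its recovered summit fragments were 712, 309 and 272 in CTRL and 1346, 365 and 334 in VPA. At the intergenic region 506.3 kb from PCDH9, a protocadherin gene, the values were 6.95, 7.73 and 5.35 in CTRL and 23.9, 6.27 and 24.0 in VPA, where VPA replicate 2 lay among the CTRL values. Without VPA replicate 1 the changes became 1.04 at FOXC1, 0.73 at DNPEP and 0.42 at PCDH9, and without CTRL replicate 1 they were 1.94, 1.73 and 1.89.

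At the regions with the most negative log2 differences, single libraries decided the value. Near NUP98, a nuclear pore gene, in a UTR of the neighbouring gene PGAP2 and at a coding transcript start, fold enrichment was 54.6, 47.4 and 50.6 in CTRL and 1.78, 42.5 and 31.6 in VPA. The fitted change of −1.81 ± 0.61 (SE, limma adjusted p = 0.9999) became −0.95 without VPA replicate 1, which had 82 fragments over the summit against 583 and 487 in the other VPA lists. In an intron of MPC2, 9.1 kb from DCAF6, the values were 176.6, 33.2 and 41.4 in CTRL and 11.96, 29.3 and 27.01 in VPA. In an intron of GPC6, a glypican gene, they were 126.7, 25.04 and 33.0 in CTRL and 6.05, 27.5 and 24.7 in VPA. Both regions had a change of −1.44, with SEs of 0.62 and 0.61. Without CTRL replicate 1 the changes were −0.17 and −0.21. At the DCAF6 region, CTRL replicates 1, 2 and 3 had 821, 516 and 418 summit fragments over a local background of 3.7, 14.6 and 9.1. At the GPC6 region they had 721, 592 and 576 over 4.7, 22.7 and 16.5.

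**Figure D4:**
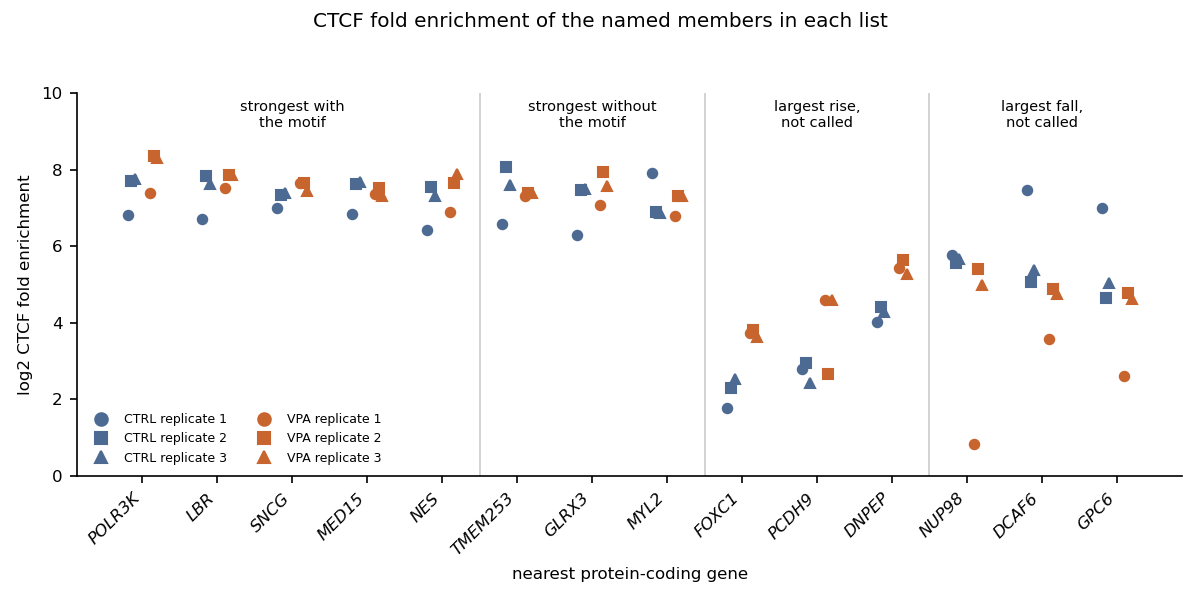
Log2 CTCF fold enrichment of the 14 named acetylated distal regions in each of the 6 lists, by nearest protein-coding gene. The strongest regions lie between 6.28 and 8.35 in every list, and the lowest point, 0.83, is VPA replicate 1 at NUP98.

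H3K27ac at the regions is given as a description, since the CTRL lists chose them. They were inside an H3K27ac peak in 69.2%, 98.4% and 98.0% of cases in CTRL and in 79.3%, 97.0% and 96.6% in VPA. Replicate 1 was the low list in both groups. The peaks around them had a median log2 fold enrichment of 3.00, 3.82 and 3.72 in CTRL and 2.87, 3.79 and 3.77 in VPA, and a median width of 1597, 1780 and 1759 bp in CTRL and 1823, 2331 and 2171 bp in VPA. Among regions inside a peak in both treatments, the VPA peak was the wider one in 80.0%, 85.1% and 80.5% of regions for replicate numbers 1, 2 and 3, and it was the one with the higher fold enrichment in 40.5%, 38.7% and 44.7%. For regions with the motif the VPA peak had the higher fold enrichment in 53.1%, 49.6% and 58.8%, and for those without it in 38.5%, 36.2% and 41.4%. Acetylated promoters, which the CTRL lists also chose, had wider peaks in VPA in 82.8%, 88.1% and 81.7% and higher ones in 26.6%, 22.8% and 29.8%. Regions with the motif lay in smaller peaks. Their H3K27ac peaks had a median width of 1164, 1181 and 1156 bp in CTRL and 1480, 1723 and 1642 bp in VPA, compared with 1666, 1927 and 1891 bp and 1905, 2474 and 2299 bp for regions without the motif. The CTCF summit lay a median of 286 to 297 bp from the H3K27ac summit in CTRL and 312 to 331 bp in VPA.

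**Figure D5:**
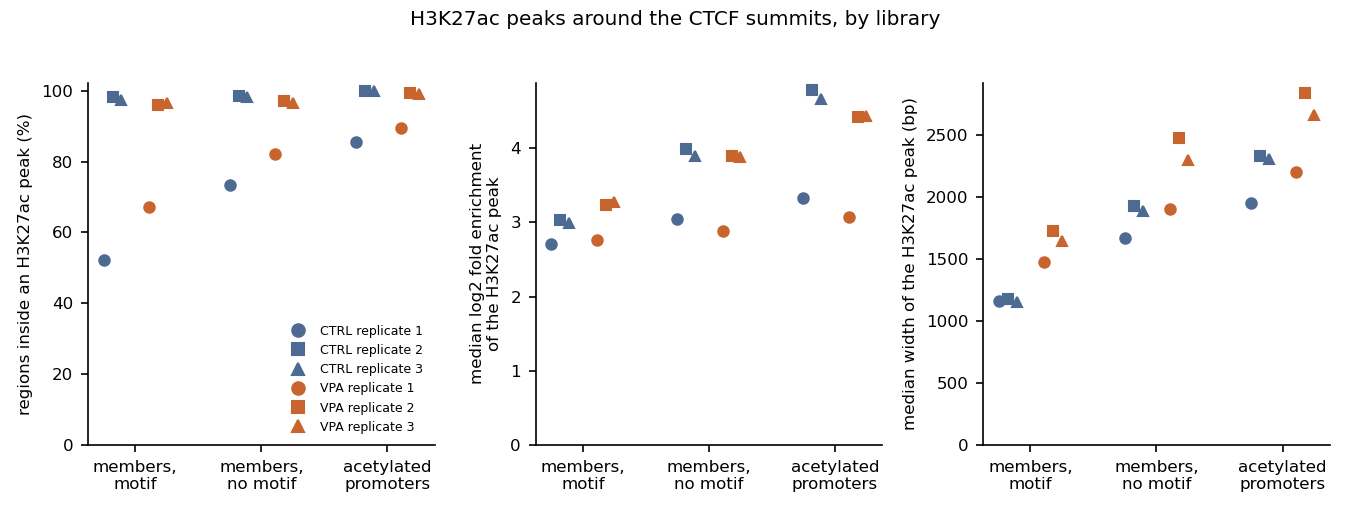
Percentage of regions inside an H3K27ac peak, median log2 fold enrichment and median width in bp of that peak, 1 point per library, for acetylated distal regions (members) with and without the CTCF motif and for acetylated promoters. Median widths are larger in VPA than in CTRL for each replicate number, and regions with the motif have the narrowest peaks (1156 to 1723 bp).

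Most acetylated stretches that held an acetylated distal region held only 1 (4986 stretches). CTCF regions of other classes were not counted here. The merged H3K27ac peaks of the CTRL lists formed 36205 stretches, of which 5263 held at least 1 acetylated distal region and 277 held more, with 587 regions in them (10.5% of the 5573). The stretch with the most was in the HOXA cluster, whose homeobox genes pattern the body axis, at chr7:27138311-27189635 (51.3 kb). It held 6 regions, of which 1 had the motif. That one, in the intergenic DNA 3.2 kb from HOXA7, had a fold enrichment of 48.8, 89.0 and 74.0 in CTRL and 80.7, 91.2 and 97.0 in VPA. The other 5 had at most 11.9 in any list, and 4 of them lacked a peak in at least 1 list. In the HOXB cluster, chr17:48584244-48606888 held 4 regions in introns of HOXB3, none with the motif. Of these, the region nearest to HOXB4 had 38.7, 80.0 and 45.03 in CTRL and 49.9, 60.6 and 66.4 in VPA, and the region nearest to HOXB3 had 29.8, 56.0 and 40.0 in CTRL and 57.2, 59.6 and 61.8 in VPA, each with a match of 2 mismatches. A stretch of 20.0 kb on chromosome 8, between 139.0 and 157.6 kb from ZNF703, a zinc finger gene, also held 4. So did 7.94 kb around WNT5A, a secreted signalling protein gene (1 region with the motif, 3 in all 6 lists), and 8.32 kb around IRF2BP2 (none with the motif, 2 in all 6 lists).

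Acetylated distal regions were assigned to the nearest protein-coding gene and counted for gene lists chosen by function. In all, 4056 of 19103 genes (21.2%) were nearest to at least 1. Of the 14 autosomal genes of architectural proteins, 3 were, with 4 regions near NIPBL, the cohesin loader, and near the zinc finger genes YY1 and MAZ, and 0 of the 4 had the motif. The region in an intron of YY1 had a fold enrichment of 46.1, 125.7 and 107 in CTRL and 75.4, 126.7 and 88.7 in VPA, so the groups overlapped. Of the 18 autosomal acetyltransferase and deacetylase genes, 9 were, with 10 regions, 0 of them with the motif. The strongest of these, 58.5 kb upstream of CREBBP, had 58.3, 137 and 55.1 in CTRL and 87.5, 155.6 and 116 in VPA.

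Nephron transcription factors were nearest to 22 regions, which belonged to 11 of 19 genes, and 2 had the motif. TFAP2A alone had 6. Near SIX2, a factor of nephron progenitors, a region 4.8 kb upstream had 31.6, 75.6 and 55.9 in CTRL and 68.2, 62.9 and 83.5 in VPA, and near EMX2 one at 4.7 kb had 53.8, 122 and 74.4 in CTRL and 98.9, 124 and 93.1 in VPA. Of the immediate early and growth genes, 13 of 19 were nearest to 25 regions, of which 4 had the motif. EGR1, an early response factor, had a region with the motif 1.2 kb upstream, with values of 41.3, 70.0 and 65.7 in CTRL and 65.3, 104.6 and 56.4 in VPA. A region 2.4 kb downstream of the CCND1 start, in an intron of this cyclin D1 gene, had 44.7, 91.7 and 74.7 in CTRL and 79.8, 148.8 and 111 in VPA. The log2 change there, 0.82 ± 0.78 (SE), had the largest size of these lists and was not called by limma. Over the lists, 3, 12, 4 and 17 regions were tested for architectural, nephron, acetylation and early genes, 0 had an unadjusted p under 0.05 where 129 of the 27794 tested regions did, and their median log2 changes were 0.41, 0.36, 0.18 and 0.28.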

How the data were processed

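ChIP-seq peak lists of 12 libraries were used, and the 6 input libraries were not analysed here. Per the labels and methods, the authors aligned reads with Bowtie2 to GRCh38 (hg38) and called peaks in each library with MACS3 3.0.0a7 separately, limited to a q-value of 0.05. Whether input was used is not given in the sources used here. Each deposited list gives the fold enrichment of the summit over local background, a linear ratio computed by the authors' peak caller. The deposited −log10 p-values and −log10 q-values come from the same caller, as does the deposited score, a rescaled −log10 q-value. Read totals are unknown. The fragments over each summit and the local background were recovered from fold enrichment and p-value (whole within 0.05 for 99.9975% or more of the peaks in each list).

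Peaks were merged with pandas 2.3.3 on Python 3.11.15, and distances used the start of each of 19111 protein-coding genes of GENCODE 44. A region was present in a list if a peak shared 1 bp with it, and its value was that of the highest peak. Sequences were read from hg38 with pysam 0.24.0. Single values were tested by exact permutation of 3 against 3 libraries or exact sign-flip over 6 lists (numpy 2.4.6, scipy 1.17.1), two-sided, with Benjamini-Hochberg adjustment over 9 tests. Log2 fold enrichment was fitted with limma 3.58.1 (R 4.3.3), with a trend, called at an adjusted p of 0.05, and the fit was tested on simulated data. The study's own comparison of reads could not be repeated on peak lists. Figures were drawn with matplotlib 3.10.9.

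Named regions were the 5 strongest with the motif, the 3 strongest without it, the 3 largest differences in each direction among the 50 smallest p (none was called), 3 acetylated stretches with the most members (1 with 6, and 2 of the 4 that tied at 4, taken in order of end coordinate; the other two are given by their counts), and members nearest to genes of 4 lists. The members and the lists were chosen with earlier results of these data known. Alternatives changed the q-value limit, list length, summit distance, number of H3K27ac lists, TSS distance and set, motif letters and window, normalization, filter and replicates.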

Additional observations from a re-analysis of the deposited data

How the results depend on the processing

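Of the recomputed values, 119 were counted as unchanged, 1 newly passed an unadjusted p of 0.05 and 8 changed sign. For values with a p, unchanged meant the same direction and the same side of 0.05. Comparisons of VPA with CTRL cannot give a p below 0.1, so for them unchanged meant the same direction only. The same holds for the peak share against unacetylated regions on 5 or 4 lists. The count of 119 is thus not a measure of stability. The limma settings have no such p and counted as unchanged if 0 members were called. The share of members in H3K27ac peaks after VPA counted as unchanged if it moved by less than the SD of the VPA lists. The other 28 no longer passed 0.05, all of them on 5 or 4 lists, where no p can pass. With lists of equal length the difference in VPA change between regions with and without the motif was −0.0224 points. With H3K27ac in 3 of 3 CTRL lists the difference in log2 fold enrichment from unacetylated distal regions was −0.1218, and with the start of every transcript the difference in peak share was 10.7374 points (exact p = 0.03125). The cause was not tested. Without replicate number 1 in both groups, chosen after seeing the data, the difference in VPA change between acetylated and unacetylated regions was −0.5451 points. The 4 differences with a sign-flip p of 0.03125 were then 0.4374, −8.3967, 18.308 and 2.6808 for fold enrichment and motif share against unacetylated regions and for peak share and fold enrichment by motif. There, 4 lists cannot give a p below 0.125, and 5 lists cannot go below 0.0625, so those p-values say nothing about stability. Leaving out each library in turn, with regions merged anew from the other 5 lists so that regions found only in the omitted list dropped out, gave ranges of −10.2633 to 0.301 points for the VPA change of the peak share and −4.5572 to 7.1989 for its difference from unacetylated regions. The ranges were 6.4344 to 11.4555 for the peak share, 0.4273 to 0.4877 for log2 fold enrichment and −10.6469 to −8.6829 for the motif share against unacetylated regions. The motif share of members changed by −0.125 to 2.2364 points with VPA. The differences by motif ranged from 18.7247 to 21.4386 and from 2.5094 to 2.6632, and the VPA change by motif from 0.2867 to 8.6725. The VPA change of the peak share differed from that of unacetylated regions by −0.339, −1.0266 and −4.5572 points without CTRL replicate 2, CTRL replicate 3 and VPA replicate 1. No region was called by limma in any of these fits, nor with recovered fragments without centring, also added after seeing the data. Counts of unadjusted p under 0.05 in the members ranged from 0 to 72 for higher and from 0 to 63 for lower in VPA. The highest counts came without replicate number 1 in both groups, where 1314 of the 27794 tested regions had such a p.

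Whether replicate numbers pair the samples is not stated, and the criterion used, every correlation over 0.1, was not met, although replicate 1 stood apart in both treatments: the correlations of same-numbered CTRL and VPA lists were 0.34, −0.045 and 0.477, and CTRL replicate 2 correlated best with VPA replicate 3 (0.409). With a replicate block the VPA change of the peak share kept its −4.22 points (exact p = 0.25, the smallest possible), and limma called 0 regions, with 52 members higher and 12 lower at an unadjusted p under 0.05. Of the 27794 regions tested in that fit, 571 had such a p.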
